A study of Mus musculus with 59 samples.

Results

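The Hox cluster genes were followed by symbol through the RNA of 14 single mouse epiblasts. Of the 22134 genes with a listed transcript, the set comprised 38 Hox genes: 10 of the Hoxa cluster, 10 of Hoxb, 9 of Hoxc and 9 of Hoxd. The 37 members that had a listed transcript were each represented by the transcript with the highest mean count. Hoxa6 had none and was at 0 in every epiblast.

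The epiblasts were dissected at E6.25, just before gastrulation, on a mixed background. The study compared epiblasts lacking Ehmt2, which encodes the H3K9 methyltransferase G9a, with controls of the same cross (4 Ehmt2-/-, 4 control), and epiblasts lacking Ezh2, the H3K27 methyltransferase of Polycomb repressive complex 2, with their own controls (3 Ezh2-/-, 3 control). The labels give the controls as G9a+/+ and Ezh+/+ (the latter as written there), and the knockouts as G9a-/- and Ezh-/-, whereas the study's text has the controls as wild type or heterozygous, so that which control was which is not known here. All came from matings of heterozygous parents, so the mothers' tissue carried an intact copy of the gene, and the Ehmt2 line also carried an EGFP reporter transgene driven by a Pou5f1 promoter. The labels make each library 1 epiblast, so p-values measure the spread between single epiblasts. By the study's text the Ezh2 cross came from 3 litters and the Ehmt2 cross from 4. Which epiblasts shared a litter is not known here, and the main fits treat them as independent. The RNA was amplified from 750 pg of RNA with a kit that does not mark strand.

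Hox genes encode homeodomain transcription factors that give cells their position along the body axis. Within a cluster their order on the chromosome follows their order of activation: the anterior paralogs, with low numbers, come on first in the posterior primitive streak at gastrulation, and the posterior paralogs later. Before that the clusters are held silent under broad H3K27me3 laid down by Polycomb repressive complex 2, and they are classical targets of this complex.

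The 4 clusters lie on 4 chromosomes of GRCm38: Hoxa at chr6:52162417-52260880, Hoxb at chr11:96194316-96368256, Hoxc at chr15:102921103-103036852 and Hoxd at chr2:74668310-74765142, each span running over the members measured here. Promoter sequences of RefSeq (GRCm38.p6, 250 bases before to 50 bases after the annotated start) were given for 22 members, with 24 promoters in all. They hold the CG dinucleotides at which such promoters are methylated or kept free of methylation, so CG is set in capitals below. The motif searched was CG, which reads the same on both strands. It occurs in 94.6% of the 32851 mouse promoters in the same table, at a median of 7 per promoter, and in 100% of the 24 Hox promoters, at 4 to 45 and a median of 14.5. The members shown are Hoxd13, which was above the controls in every Ezh2-/- epiblast, Hoxb1, the highest per kb of the 3 members with a count in every epiblast, and Hoxa11, the member with the highest level in the controls.
Hoxd13: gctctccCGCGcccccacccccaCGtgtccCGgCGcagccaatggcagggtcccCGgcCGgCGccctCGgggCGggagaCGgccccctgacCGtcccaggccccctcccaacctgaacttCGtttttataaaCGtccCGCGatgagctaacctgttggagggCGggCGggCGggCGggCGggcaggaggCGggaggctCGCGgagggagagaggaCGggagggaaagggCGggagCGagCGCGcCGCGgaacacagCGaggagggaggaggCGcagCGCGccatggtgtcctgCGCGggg
Hoxb1: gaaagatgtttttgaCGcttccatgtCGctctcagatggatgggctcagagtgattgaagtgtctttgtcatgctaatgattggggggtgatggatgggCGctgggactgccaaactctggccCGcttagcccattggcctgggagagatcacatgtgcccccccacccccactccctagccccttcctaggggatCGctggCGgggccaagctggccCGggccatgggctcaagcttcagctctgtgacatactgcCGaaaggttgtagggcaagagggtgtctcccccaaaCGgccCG
Hoxa11: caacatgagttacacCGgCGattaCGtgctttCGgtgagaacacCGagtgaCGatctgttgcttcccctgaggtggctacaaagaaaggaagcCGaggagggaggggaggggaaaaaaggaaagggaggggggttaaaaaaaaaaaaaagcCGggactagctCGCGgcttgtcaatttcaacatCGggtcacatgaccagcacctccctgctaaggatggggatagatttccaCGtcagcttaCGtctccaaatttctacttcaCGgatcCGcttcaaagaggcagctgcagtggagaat
The Hoxd13 promoter lies at chr2:74667975-74668274 on the plus strand and holds 37 CG, at percentile 94.4 of all promoters. The Hoxb1 promoter, at chr11:96365508-96365807 on the plus strand, holds 10, and the Hoxa11 promoter, at chr6:52245761-52246060 on the minus strand, holds 15. No promoter of Hoxc9 was listed.

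The libraries held 30161171 to 78951344 counts summed over all listed transcripts, in which a read can count for several transcripts of a gene, and both replicates of number 4 in the Ehmt2 cross were the deepest. Ehmt2 stood at 10.5 to 29.8 CPM (read counts scaled to a common TMM library size) in its controls and 3.29 to 8.48 in Ehmt2-/- epiblasts. Ezh2 stood at 51.6 to 108 CPM in its controls and 11.4 to 16.0 CPM in Ezh2-/- epiblasts. The 8 epiblast markers (Pou5f1, Otx2, Fgf5 and others) were all above 3 counts in every library. Their sum was 2352 to 2782 CPM in the Ehmt2 controls and 1449 to 2036 in the Ehmt2-/- epiblasts, with no overlap, and 2301 to 2530 against 1856 to 2444 in the Ezh2 cross. Other tissues differed between libraries, and their summed CPM is given with the results it moves with: 12 visceral endoderm markers reached 1173 in Ezh2 control 2 and 2612 in Ezh2-/- 1 against 9.21 to 64.7 in the 12 others.

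Hox genes were near the limit of detection in most epiblasts. In the 7 controls 29 of the 38 members (76.3%) had a median of 3 counts or fewer, against 32.5% of all genes with a listed transcript. A member was taken as detected above 3 counts, the most that a count of 0 allows, which corresponds to 0.0380 to 0.0995 CPM depending on the library. This limit covers counting error alone. No member was detected in all 14 epiblasts, 10 were detected in 7 or more, and 7 in none: Hoxa4, Hoxa5, Hoxa6, Hoxb5, Hoxb8, Hoxb13 and Hoxc6.

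**Figure D1:**
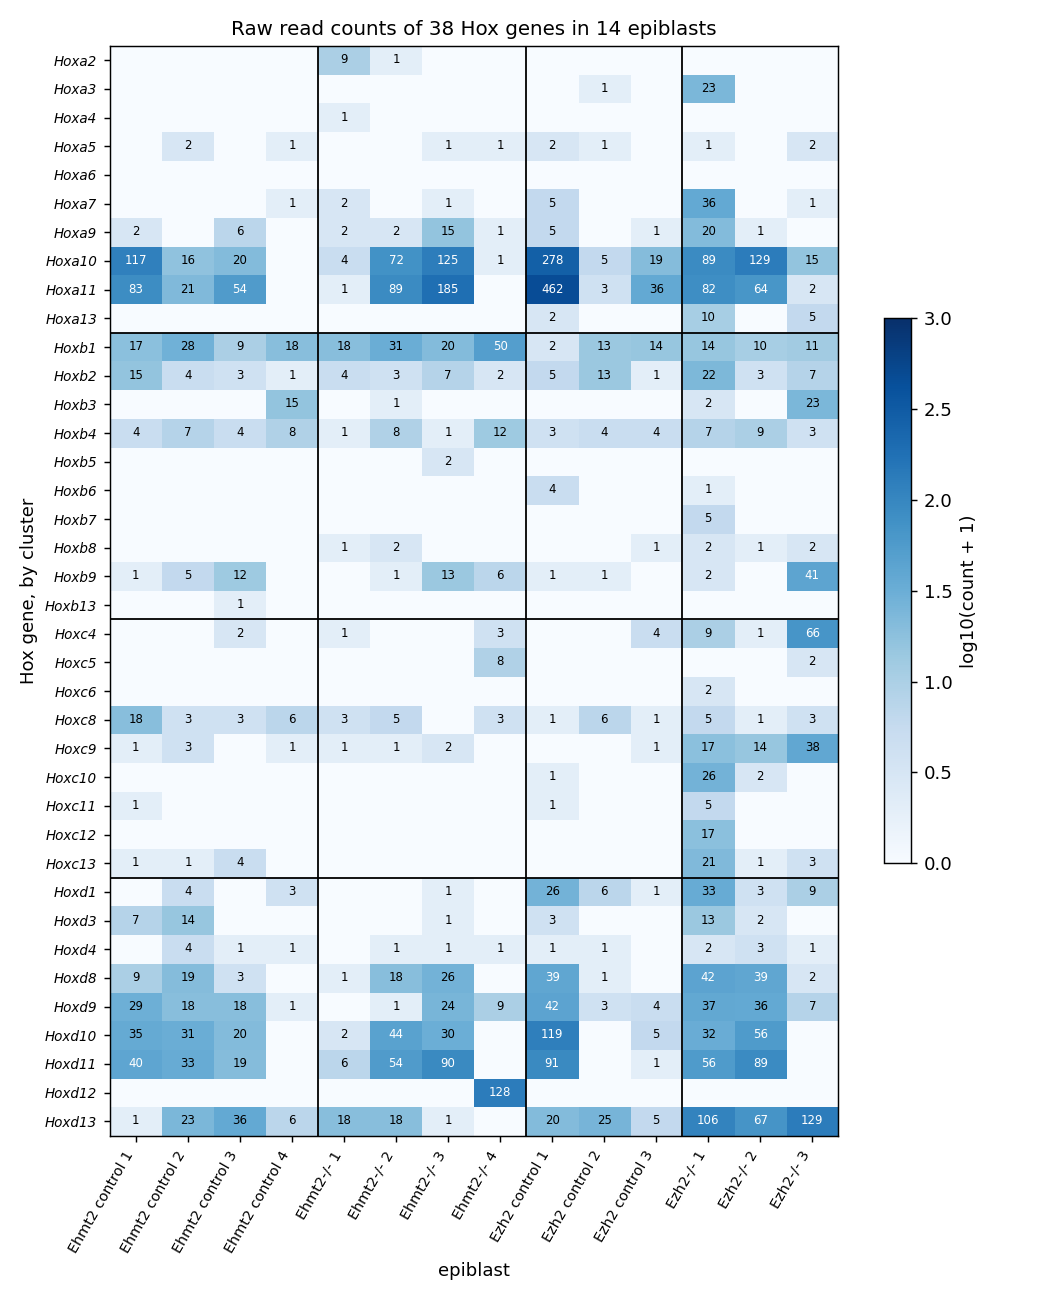
Raw read counts of the 38 Hox genes (rows, by cluster and paralog number) in the 14 epiblasts (columns, by group), with the count printed in each cell above 0 and the shade giving log10(count + 1). Hoxd13 is at 67 to 129 in the 3 Ezh2-/- epiblasts and at 0 to 36 in the other 11, whereas Hoxa10, Hoxa11 and Hoxd8 to Hoxd11 vary widely within each group.

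The number of members detected was 11, 14, 11 and 5 in the Ehmt2 controls and 6, 9, 10 and 6 in the Ehmt2-/- epiblasts, so the ranges overlapped. In the Ezh2 cross it was 12, 7 and 8 in the controls and 24, 10 and 11 in the Ezh2-/- epiblasts. Ezh2-/- 1 stood apart with 24 members, of which 7 belonged to Hoxc, a cluster with 0 or 1 detected member in each of the 7 controls. It was also the library with the highest visceral endoderm sum. Ezh2 control 2, with the second highest sum, had 7 members detected. The part of this tissue in the Hox counts was not tested.

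**Figure D2:**
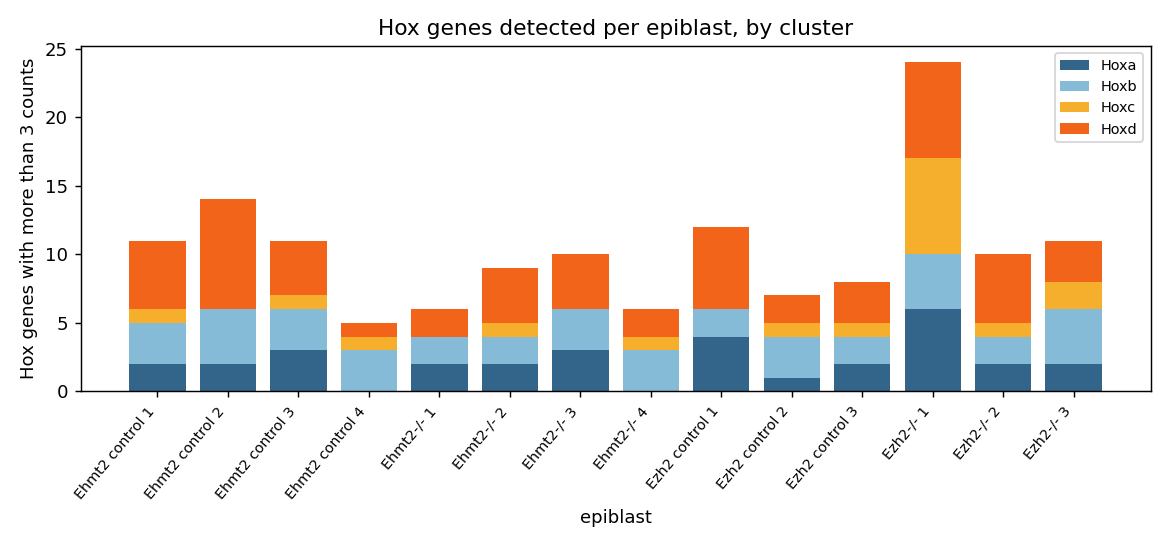
Number of Hox genes with more than 3 counts in each of the 14 epiblasts, stacked by cluster (bar height, genes). Ezh2-/- 1 reaches 24 genes and includes 7 of Hoxc, and the other 13 epiblasts lie between 5 and 14.

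By paralog position, the 7 anterior members (paralogs 1 to 3) and 15 central members (4 to 8) gave few reads. The 16 posterior members (9 to 13) gave 12.9% to 91.8% of all Hox counts in an epiblast. The share was lowest in Ehmt2 control 4, with 8 of 62 Hox counts, and highest in Ezh2 control 1, with 1022 of 1113. Posterior reads thus made up most of the Hox reads in 11 of the 14 epiblasts. In 1 of these, Ehmt2-/- 4, 128 of the 145 posterior counts were Hoxd12, which had no count in any other epiblast.

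Among the 7 controls the order of levels per kb of transcript was led by posterior members. Hoxa11, needed for limb and uterus patterning, had a mean of 1.12 CPM per kb (SD 2.02, n = 7), Hoxa10, its neighbour with a role in the uterus, 0.683 (SD 1.11), and Hoxd10 0.436 (SD 0.644). They were followed by Hoxd11 at 0.203 (SD 0.270), Hoxd9 at 0.199 (SD 0.195), Hoxd13 at 0.172 (SD 0.142) and Hoxb1 at 0.163 (SD 0.0812). The mean difference between each pair of neighbours in this order was smaller than its SD over the 7 controls, so the order among these 7 was not resolved. Ezh2 control 1 carried much of the leading means: without it they were 0.370 for Hoxa11, 0.292 for Hoxa10, 0.203 for Hoxd10 and 0.111 for Hoxd11, whereas Hoxd13 was at 0.163 and Hoxb1 at 0.186. Hoxa10 stood above Hoxd10 in 4 of 7 controls, and Hoxa11 above Hoxa10 in 4 of 7. At the other end 9 members had no count in any control: Hoxa2, Hoxa4, Hoxa6, Hoxb5, Hoxb7, Hoxc5, Hoxc6, Hoxc12 and Hoxd12.

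Loss of Ezh2 was compared with its controls over the 9 members that passed the filter on low counts: Hoxa10, Hoxa11, Hoxb1, Hoxc9, Hoxd8, Hoxd9, Hoxd10, Hoxd11 and Hoxd13. Hoxc9 passed the filter only through its counts in the Ezh2-/- epiblasts. Hoxd13 passed through Ezh2 controls 1 and 2 together with its Ezh2-/- counts, since Ezh2 control 3, at 5 counts, fell short. The other 29 members had too few counts to be fitted and are given by their counts. Hoxd13 and Hoxc9 were higher in each of the 3 Ezh2-/- epiblasts than in any of the 3 controls, and neither passed after adjustment in edgeR.

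Hoxd13, the last gene of its cluster, which patterns digits and the genital tubercle, had 20, 25 and 5 counts in the Ezh2 controls and 106, 67 and 129 in the Ezh2-/- epiblasts. In CPM this was 0.560, 0.713 and 0.142 against 3.29, 1.79 and 3.38. The lowest Ezh2-/- epiblast was above the highest control, and above every Ehmt2 cross epiblast (0 to 36 counts). The mean rose from 0.471 CPM (SD 0.296, n = 3) to 2.82 (SD 0.891, n = 3), a ratio of 5.99. The fitted log2 fold change was 2.57 (SE 0.59), with an unadjusted p of 0.00127 and an adjusted p of 0.404 in edgeR's quasi-likelihood test with Benjamini-Hochberg adjustment over all transcripts tested.

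Hoxc9, a posterior gene that patterns the thoracic skeleton and motor columns, had 0, 0 and 1 counts in the Ezh2 controls. It had 17, 14 and 38 counts in the Ezh2-/- epiblasts, or 0.528, 0.375 and 0.996 CPM. All 8 Ehmt2 cross epiblasts had 0 to 3 counts, so the 3 Ezh2-/- epiblasts were the only libraries in which the gene was detected. The 69 counts of the Ezh2-/- group against 1 in the controls gave a ratio of 69.7 (95% exact interval 12.1 to 2791, counting error only). The fitted log2 fold change was 5.63 (SE 1.14), with an unadjusted p of 0.000513 and an adjusted p of 0.32 in edgeR.

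Hoxc13, which acts in hair and nails, was the third member with no overlap, but at very low counts. It had 0 in all 3 Ezh2 controls and 21, 1 and 3 in the Ezh2-/- epiblasts, of which only Ezh2-/- 1 exceeded the detection limit. Since 21 of the 25 Ezh2-/- counts came from that library, no fold is given. It did not pass the filter on low counts.

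**Figure D3:**
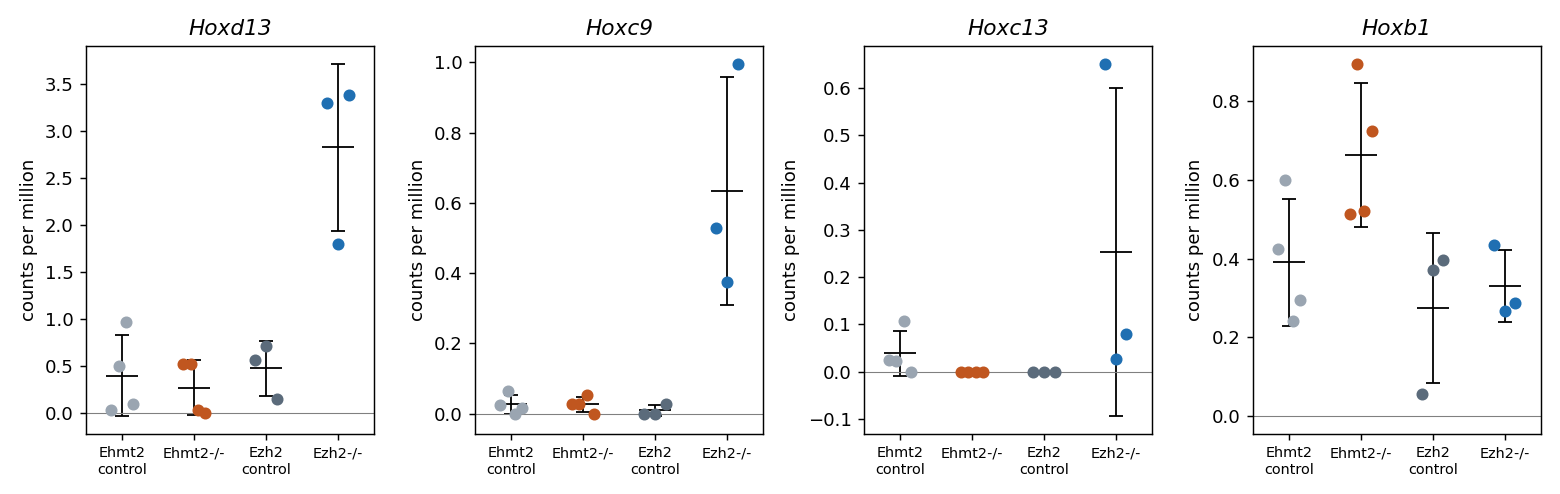
Level of Hoxd13, Hoxc9, Hoxc13 and Hoxb1 in each epiblast (points, CPM) by group, with the group mean (line) and SD (bar). The 3 Ezh2-/- epiblasts lie above the 3 Ezh2 controls for Hoxd13, Hoxc9 and Hoxc13, by a small margin for Hoxc13, and overlap them for Hoxb1.

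Of the 9 Hox genes tested in the Ezh2 cross, 2 had an unadjusted p under 0.05 and a log2 fold change above 1.4. Of all 14010 genes tested, 1.97% did. Hoxc9 was among the 9 only through its Ezh2-/- counts, so its place there is tied to the difference being counted. Hoxd13 also needed Ezh2-/- counts beside those of Ezh2 controls 1 and 2, so its place is not independent of that difference either. None of the 9 was lower, against 0.328% of genes. After adjustment edgeR called 0 members higher, against 0% of all genes, and 0 lower, against 0.00714%. With DESeq2 the 2 were called, with an adjusted p of 0.00771 for Hoxd13 and 0.0382 for Hoxc9, against 0.485% of genes called higher in that fit. DESeq2 called 0 members lower, against 0.0214% of genes. A rule modelled on the study's own, which compares each knockout epiblast with the controls, took both as higher, against 0.857% of genes. It uses the same libraries, and its combined p-values share the controls although Fisher's method takes them as independent. It is therefore not separate evidence. In the 13 alternative fits of the Ezh2 cross the adjusted p ran from 0.00771 to 0.723 for Hoxd13 and from 0.0382 to 0.713 for Hoxc9, and DESeq2 alone gave values under 0.05.

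Every Ezh2-/- epiblast lay above every control for 3 of the 38 members, 2 of them among the 9 tested. Of all genes tested, 7.65% did so. The 3 of 38 lie near that share, and the 29 members that failed the filter have no counterpart in it. Of the 2 among the 9, Hoxc9 was tested only through its Ezh2-/- counts, and Hoxd13 partly through them. No member lay below, against 6.58% of genes. With 3 against 3 epiblasts the smallest p that an exact two-sided permutation test can give is 0.1, and each of Hoxc9, Hoxc13 and Hoxd13 had this value. The count of 3 became 5 without Ezh2 control 1 or without Ezh2 control 3, 8 without Ezh2-/- 2 and 6 without Ezh2-/- 3, and Hoxc9, Hoxc13 and Hoxd13 were among them each time. The share of all genes tested rose likewise, to 13.7% and 12.6% without the 2 controls and to 13.2% and 12.6% without the 2 Ezh2-/- epiblasts.

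Of the other 7 members tested, none passed, with log2 fold changes from -1.71 to 1.09. Hoxa11 had 462, 3 and 36 counts in the Ezh2 controls and 82, 64 and 2 in the Ezh2-/- epiblasts. The range of the Ezh2-/- epiblasts lay within or below that of the controls, so the groups overlapped (log2 fold change -1.71, SE 1.32, edgeR adjusted p = 0.852). Hoxa10 had 278, 5 and 19 against 89, 129 and 15, and Hoxd10 had 119, 0 and 5 against 32, 56 and 0. Hoxd11 had 91, 0 and 1 against 56, 89 and 0, and Hoxd9 had 42, 3 and 4 against 37, 36 and 7. In these 4 genes Ezh2 control 1 lay above every Ezh2-/- epiblast, and the other controls lay at or below 19 counts. Without that control, Hoxa10, Hoxd8, Hoxd9 and Hoxd11 also had an unadjusted p under 0.05 with a log2 fold change above 1.4, which made 6 members in place of 2, while the share of all genes rose from 1.97% to 4.03%. Hoxb1, an anterior gene that patterns the hindbrain, had 2, 13 and 14 counts against 14, 10 and 11 (log2 fold change 0.26, SE 0.83, edgeR adjusted p = 0.969).

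Members below the filter were seen in single Ezh2-/- libraries. In Ezh2-/- 1 alone of the Ezh2 cross, Hoxa3 (23 counts), Hoxa7 (36), Hoxa9 (20), Hoxc10 (26), Hoxc12 (17) and Hoxd3 (13) exceeded 10 counts, together with Hoxc13. Hoxb7 had 5 counts there, Hoxc11 had 5 and Hoxa13 had 10. Ezh2-/- 3 alone had Hoxc4 (66 counts), Hoxb9 (41) and Hoxb3 (23) above 10 counts. Hoxb3 also had 15 in Ehmt2 control 4, and Hoxb9 had 12 and 13 in Ehmt2 control 3 and Ehmt2-/- 3, so these genes were not read in Ezh2-/- epiblasts only. Hoxd1, by contrast, had 26, 6 and 1 counts in the Ezh2 controls and 33, 3 and 9 in the Ezh2-/- epiblasts.

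Summed over a cluster, the Hoxc members gave 0.0839, 0.171 and 0.170 CPM in the Ezh2 controls and 3.17, 0.509 and 2.94 in the Ezh2-/- epiblasts, which did not overlap. The Hoxd members gave 9.54, 1.03 and 0.453 CPM against 9.97, 7.90 and 3.88, and the Hoxa members 21.1, 0.285 and 1.59 against 8.10, 5.20 and 0.655. The Hoxb members gave 0.420, 0.884 and 0.567 against 1.71, 0.616 and 2.28. Only Hoxc therefore separated the groups. Its highest member was Hoxc10 in Ezh2-/- 1, Hoxc9 in Ezh2-/- 2 and Hoxc4 in Ezh2-/- 3. In Ezh2-/- 2, however, Hoxc9 gave 14 of the 19 Hoxc counts and no other Hoxc member exceeded 2. The Ezh2 controls had 3, 6 and 6 Hoxc counts, so the separation of Ezh2-/- 2 rested on Hoxc9.

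Loss of Ehmt2 was compared with its controls over the 7 members that passed the filter: Hoxa10, Hoxa11, Hoxb1, Hoxd9, Hoxd10, Hoxd11 and Hoxd13. The other 31 had too few counts. No member passed the test in the Ehmt2-/- epiblasts. In edgeR 0 members were called higher, against 0.781% of all 13701 genes tested, and 0 lower, against 0.0584%. At an unadjusted p under 0.05 with a log2 fold change beyond 1.4, 0 were higher and 0 lower, against 2.83% and 1.11% of genes. DESeq2 called 0 higher and 0 lower, against 1.64% and 0.445% of genes. The rule that compares each knockout epiblast with the controls took no member as higher, against 0.861% of genes. Every Ehmt2-/- epiblast lay above every control for 0 members, against 3.44% of genes, and below for 0, against 2.64%. A count of 1 appeared without Ehmt2-/- 1 (Hoxa11 higher at an unadjusted p under 0.05, by a rule that 403 of 14086 genes passed). It also appeared without Ehmt2 control 2 (Hoxb1, no overlap, higher) and without Ehmt2 control 4 (Hoxc13, no overlap, lower). Hoxc13 then had 1, 1 and 4 counts in the controls and 0 in the Ehmt2-/- epiblasts, near the limit of detection. The share of all genes without overlap was not worked out for these left-out sets, so neither is read as a result.

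Hoxd13 did not follow the genotype in this cross. It had 1, 23, 36 and 6 counts in the Ehmt2 controls and 18, 18, 1 and 0 in the Ehmt2-/- epiblasts. The groups overlapped throughout (log2 fold change -0.98, SE 1.11, edgeR adjusted p = 0.788). Hoxb1 had 17, 28, 9 and 18 counts against 18, 31, 20 and 50. The mean was 0.390 CPM (SD 0.160, n = 4) in the controls and 0.664 (SD 0.183, n = 4) in the Ehmt2-/- epiblasts, with 1 control, Ehmt2 control 2, inside the range of the Ehmt2-/- epiblasts (log2 fold change 0.78, SE 0.58, edgeR adjusted p = 0.655). Hoxc9 had 1, 3, 0 and 1 counts against 1, 1, 2 and 0, and was not fitted.

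The posterior Hoxa and Hoxd genes differed as much within the groups as between them. Hoxa11 had 83, 21, 54 and 0 counts in the controls and 1, 89, 185 and 0 in the Ehmt2-/- epiblasts. Hoxa10 had 117, 16, 20 and 0 against 4, 72, 125 and 1. Both were highest in Ehmt2-/- 3 and absent or nearly so in both epiblasts of replicate 4, the most deeply sequenced libraries. Hoxd10 had 35, 31, 20 and 0 against 2, 44, 30 and 0, and Hoxd11 had 40, 33, 19 and 0 against 6, 54, 90 and 0. Hoxd9 had 29, 18, 18 and 1 against 0, 1, 24 and 9. The log2 fold changes of these 5 ran from -0.55 to 0.90, and only that of Hoxd11 (0.86, SE 0.81) was larger than its SE.

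Hoxd12, a digit and forearm gene, was read in a single epiblast. It had 128 counts, or 1.85 CPM, in Ehmt2-/- 4 and 0 counts in the other 13 epiblasts. Its neighbours Hoxd13 and Hoxd11 were at 0 in that library. Hoxa2 (9 counts in Ehmt2-/- 1) and Hoxc5 (8 in Ehmt2-/- 4) were likewise detected in 1 library.

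**Figure D4:**
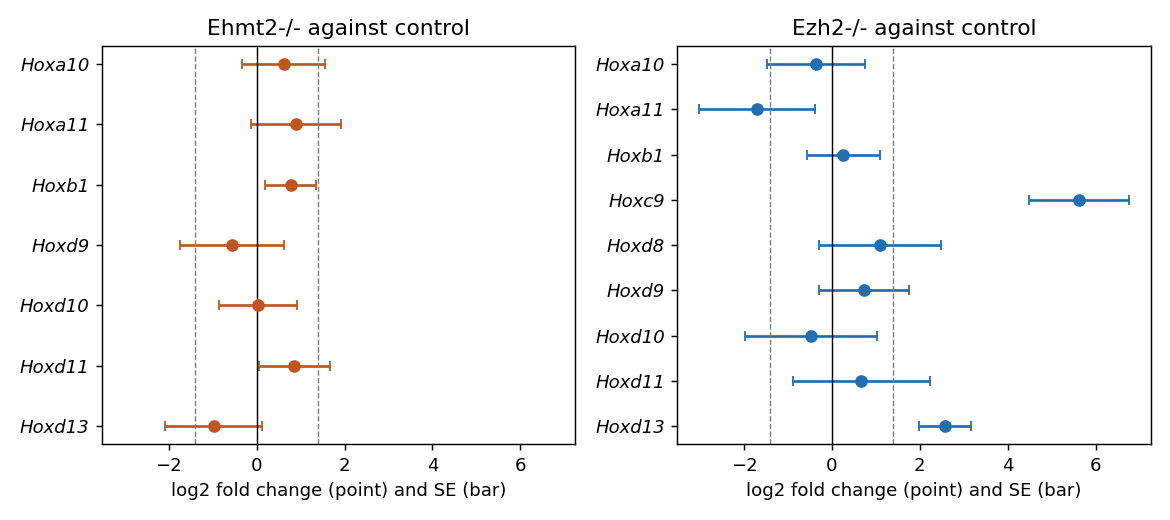
Fitted log2 fold change (point) and SE (bar) of the members that passed the filter on low counts, 7 in the Ehmt2 cross (left) and 9 in the Ezh2 cross (right), with dashed lines at -1.4 and 1.4. Hoxc9 at 5.63 and Hoxd13 at 2.57 in the Ezh2 cross lie beyond the line with bars that stay above it, and the Ehmt2 cross has no member beyond it.

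The knockout effects of both crosses were compared with each other for 11 members that passed the filter over the 14 epiblasts. The difference, Ezh2 effect minus Ehmt2 effect, was 5.88 on the log2 scale for Hoxc9 (SE 1.87, unadjusted p = 0.00626, edgeR adjusted p = 0.403) and 3.51 for Hoxd13 (SE 1.38, unadjusted p = 0.0216, edgeR adjusted p = 0.512). These were the 2 members with an unadjusted p under 0.05, against 10.3% of all 15195 genes tested. Here too Hoxc9 passed the filter only through its Ezh2-/- counts. After adjustment 0 members passed in edgeR, against 0.118% of genes, and 0 in DESeq2, against 0.981%. A difference between the crosses was therefore not resolved after adjustment.

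The levels of Hoxa10, Hoxa11, Hoxd8, Hoxd9, Hoxd10 and Hoxd11 moved together from epiblast to epiblast, across both genotypes. Of the 45 pairs among the 10 members detected in 7 or more epiblasts, the 15 pairs of these 6 had Pearson's r from 0.746 to 0.939 and Spearman's rho from 0.676 to 0.964 over 14 epiblasts. All 15 had an adjusted permutation p under 0.05 (0.00015 to 0.00747, Benjamini-Hochberg over 45). The other 30 pairs had r from -0.467 to 0.461, with none under 0.05. With the 2 farthest epiblasts left out, r of the 15 pairs was 0.632 to 0.942. Within the 6 Ezh2 cross epiblasts it was 0.778 to 0.994, and within replicates 1 to 3 of the Ehmt2 cross 0.22 to 0.918. The 6 were singled out after these values were seen. Hoxd13 and Hoxb1 were not among them.

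The same 6 members were set against markers of the maternal decidua, the uterine tissue that surrounds the embryo, and 5 of them passed the test, Hoxd9 being the exception. A list of 7 decidua and blood markers was used: Prl8a2, Prl3c1, Dcn, Col1a1, Hba-a1, Hbb-bs and Hbb-bt. Between 2 and 7 of the 7 exceeded 3 counts in an epiblast, and their sum was 1.54 to 24.4 CPM in the Ehmt2 controls, 3.42 to 33.8 in the Ehmt2-/-, 1.03 to 28.6 in the Ezh2 controls and 2.70 to 33.1 in the Ezh2-/- epiblasts. Prl8a2, a hormone gene of the decidua, was at 0 in Ehmt2 control 4, Ehmt2-/- 4 and Ezh2 control 2, and Prl3c1 at 0 in these and in Ehmt2-/- 1 and Ezh2-/- 3. The 3 libraries without Prl8a2 had 0 to 3 counts of Hoxa11 and 0 of Hoxd10 and Hoxd11. Ezh2-/- 3, which was not without Prl8a2, also had 2 counts of Hoxa11 and 0 of Hoxd10 and Hoxd11. Dcn, a matrix gene of fibroblasts and the decidua, was not absent from the Ehmt2 cross libraries without Prl8a2, with 73 counts in Ehmt2 control 4 and 136 in Ehmt2-/- 4. These are the deepest libraries, and the whole list summed to 1.54 and 3.42 CPM there. In Ezh2 control 2 the whole list summed to 1.03 CPM. Dcn had 97 counts in Ezh2 control 3.

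Over the 14 epiblasts, log2(CPM + 0.5) of Hoxd11 followed the log2 sum of the list with r = 0.898 and rho = 0.891 (permutation, adjusted p = 0.00275 for r over the 50 relations of 10 members with 5 marker lists, and 0.00225 for rho). For Hoxa11 r was 0.837 and rho 0.891, for Hoxd10 r was 0.844 and rho 0.842, for Hoxa10 r was 0.819 and rho 0.789, and for Hoxd8 r was 0.774 and rho 0.841. Their adjusted permutation p was 0.00275 to 0.0152 for r and 0.00225 to 0.0135 for rho. For Hoxd9 r was 0.691 and rho 0.657, with an adjusted permutation p of 0.0569 and 0.0912. Without the 2 epiblasts farthest from the median of the list, r of these 6 was 0.62 to 0.9, within the Ezh2 cross 0.871 to 0.953, and within replicates 1 to 3 of the Ehmt2 cross 0.439 to 0.978. The 2 replicate 4 epiblasts are too few for a value of their own.

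Hoxd13 (r = 0.0665, rho = 0.033), Hoxb1 (r = 0.0562, rho = 0.134) and Hoxb4 (r = 0.0911, rho = -0.0637) had an adjusted permutation p of 0.964 for r with the decidua list. In Ezh2-/- 1, 2 and 3 Hoxd13 had 106, 67 and 129 counts, and the list summed to 33.1, 13.2 and 2.70 CPM. With the log2 sum of the list added to the fit, an alternative chosen after seeing the data, the log2 fold change of Hoxd13 in Ezh2-/- epiblasts was 2.61 (SE 0.64) and that of Hoxc9 5.88 (SE 1.22). No such fit was made with the other marker lists. How much decidual tissue carried the posterior Hox reads, those of Hoxd13 and Hoxc9 among them, was not tested. In these whole epiblasts more cells of a type and more RNA per cell cannot be told apart.

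**Figure D5:**
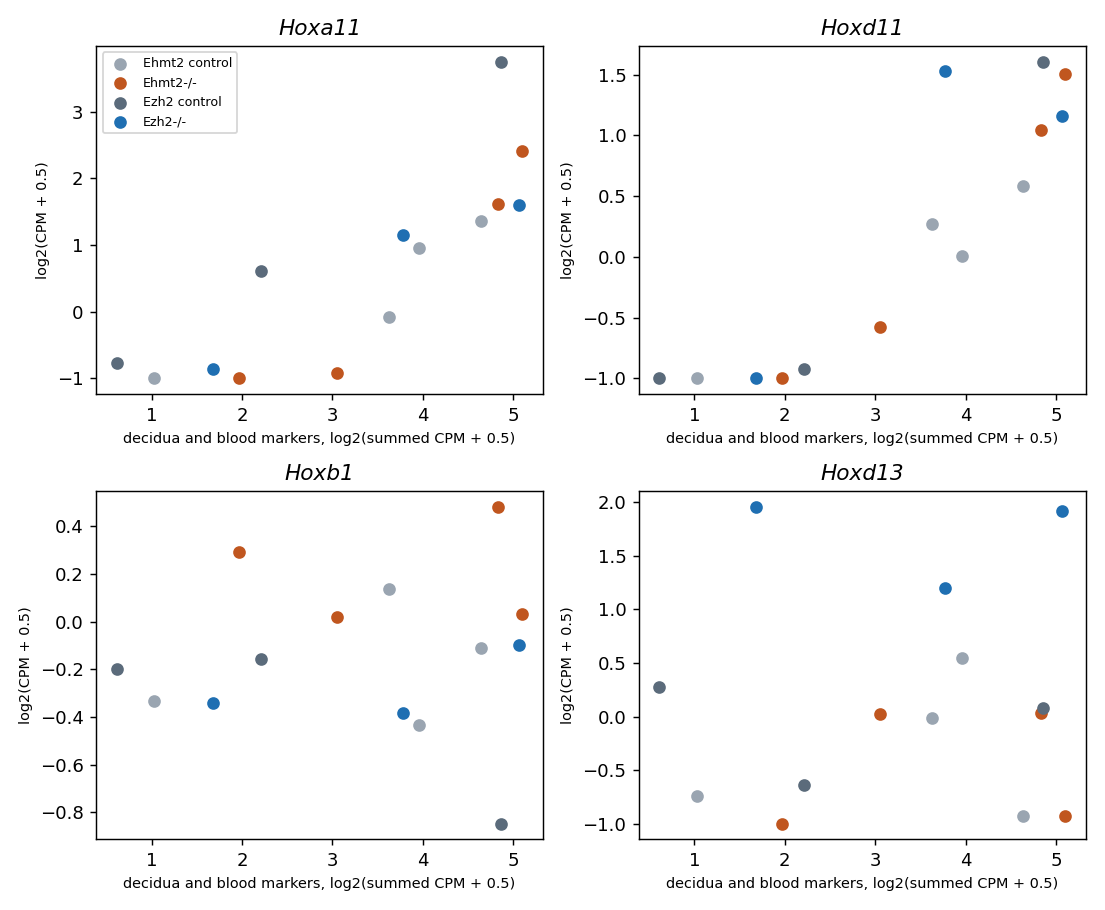
Level of Hoxa11, Hoxd11, Hoxb1 and Hoxd13 (vertical axes, log2(CPM + 0.5)) against the summed level of 7 decidua and blood markers (horizontal axes, log2(summed CPM + 0.5)) in the 14 epiblasts, coloured by group. Hoxa11 (r = 0.837) and Hoxd11 (r = 0.898) rise with the markers over the 14 epiblasts, whereas Hoxb1 (r = 0.0562) and Hoxd13 (r = 0.0665) do not.

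The remaining marker lists gave 1 further relation. Hoxb2, an anterior gene of the hindbrain, was highest in Ezh2-/- 1 (22 counts) and had 13 in Ezh2 control 2, the libraries rich in visceral endoderm markers. Its r with the sum of the 12 visceral endoderm markers was 0.873 over 14 epiblasts (permutation, adjusted p = 0.00275) and its rho 0.697 (adjusted p = 0.0592). It was 0.602 without the 2 farthest epiblasts, 0.944 within the Ezh2 cross and 0.224 within replicates 1 to 3 of the Ehmt2 cross, so it was weaker without the libraries rich in these markers. Hoxd13 had r = 0.493 and rho = 0.385 with the same list, with an adjusted permutation p of 0.345 and 0.507.

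Extraembryonic ectoderm markers moved with genotype in the Ehmt2 cross: 5 of the 11 (Elf5, Tfap2c, Bmp4, Esrrb and Sox21) were called higher in edgeR. The sum of all 11 was 31.5 to 139.7 CPM in the controls and 35.3 to 383 CPM in the Ehmt2-/- epiblasts. In the Ezh2 cross 9 of the 11 were tested and none was called, and the sum of all 11 was 72.0 to 105 against 81.0 to 155.5 CPM. Most of this sum was Eomes, which is also on the primitive streak list. Eomes stood at 70.9, 95.1 and 62.2 CPM in the Ezh2 controls and 74.8, 133.6 and 66.2 in the Ezh2-/- epiblasts. The overlap of the sums in this cross is therefore mainly that of Eomes. At an unadjusted p under 0.05, however, 4 of the 9 were higher in Ezh2-/- epiblasts in edgeR (Bmp4, Esrrb, Hand1 and Tfap2c), and they thus moved in the same direction as Hoxd13 and Hoxc9. Bmp4 had 45, 53 and 44 counts in the Ezh2 controls and 286, 125 and 189 in the Ezh2-/- epiblasts, and Esrrb had 3, 5 and 4 against 75, 22 and 18, both with no overlap. Elf5 and Sox21 were at 0 in Ehmt2-/- 4. Whether this tissue added to any Hox count was not tested. The sum of the 12 primitive streak and early mesoderm markers was 26.5 to 215.6 CPM in the Ehmt2 controls, 50.5 to 129 in the Ehmt2-/-, 77.6 to 174.5 in the Ezh2 controls and 102 to 207 in the Ezh2-/- epiblasts. Its r with Hoxd13 was 0.59 and its rho 0.591 over the 14 epiblasts, with an adjusted permutation p of 0.166 and 0.184, and r was 0.412 within the Ezh2 cross. In the Ezh2 cross much of this sum, too, was Eomes. No marker of this list was called in edgeR. At an unadjusted p under 0.05, Lefty2 was higher in Ezh2-/- epiblasts (log2 fold change 2.01, edgeR adjusted p = 0.125). Mixl1 (-4.21, edgeR adjusted p = 0.103) and Lhx1 (-2.29, edgeR adjusted p = 0.403) were lower in Ehmt2-/- epiblasts.

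Some members share exons with other genes. Because the kit does not mark strand, reads of Hoxa11 and of the antisense transcript Hoxa11os, which covers 35.0% of the exonic bases of the Hoxa11 transcript used, cannot be told apart there. Hoxa11os had 62, 0 and 1 counts in the Ezh2 controls and 36, 23 and 2 in the Ezh2-/- epiblasts. On the same strand, Hoxd11 shares 13.5% and Hoxd10 5.73% of exonic bases with the readthrough transcript Gm28309, and Hoxd3 shares 88.0% with Gm28230 and Hoxd4. The counts of Hoxd3 and Hoxd4 are therefore uncertain as to their gene. Hoxd13, Hoxc9, Hoxc13, Hoxb1 and Hoxa10 share no exonic base with another listed gene. Of the 8 other genes listed inside the clusters 2 passed the filter in the Ezh2 cross and 0 in the Ehmt2 cross, and none was called.

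Genes around the clusters were read as a measure of the neighbourhood. Of the 24 flanking protein-coding genes, 3 on each side of a cluster, 21 were tested in each cross and none was called in edgeR. In the Ezh2 cross their log2 fold changes ran from -0.55 to 0.56 with a median of -0.09, and the 9 Hox genes ran from -1.71 to 5.63 with a median of 0.67. The SE was 0.10 (Hnrnpa1) to 0.63 (Evx1) for the flanking genes and 0.59 to 1.56 for the Hox genes. The widths of these ranges therefore cannot be compared directly. In the Ehmt2 cross the flanking genes ran from -1.27 to 0.92 with a median of 0.04, and the 7 Hox genes from -0.98 to 0.90 with a median of 0.61. Over all genes tested the median was 0.03 in the Ezh2 cross and 0.01 in the Ehmt2 cross.

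Hox proteins bind DNA together with other homeodomain proteins as cofactors, Meis proteins among them. Of 9 cofactor genes, 9 were tested in the Ehmt2 cross and 8 in the Ezh2 cross, with none called in either. Meis1 had 2, 19, 3 and 1 counts in the Ehmt2 controls and 137, 33, 49 and 2 in the Ehmt2-/- epiblasts (log2 fold change 3.17, SE 0.87, unadjusted p = 0.0035, edgeR adjusted p = 0.16). Meis2 had 60, 22 and 22 counts in the Ezh2 controls and 120, 95 and 82 in the Ezh2-/- epiblasts, with no overlap (log2 fold change 1.52, SE 0.50, unadjusted p = 0.0115, edgeR adjusted p = 0.568). Of the 6 ParaHox and caudal genes, only Cdx2 was tested, in the Ehmt2 cross. This activator of central Hox genes, which also marks extraembryonic ectoderm, had 1, 20, 2 and 0 counts in the controls and 228, 47, 45 and 0 in the Ehmt2-/- epiblasts (log2 fold change 4.04, SE 1.03, edgeR adjusted p = 0.133). In the Ezh2 cross, untested, Cdx2 had 4, 0 and 0 counts against 25, 72 and 1, which overlapped. Pdx1, also untested, had 0, 0 and 0 against 44, 10 and 55, with no overlap. Of all genes tested in that cross, 7.65% lay above every control.

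Retinoic acid is the classical inducer of anterior Hox genes. Of 18 genes of its pathway 14 were tested in each cross and none was called. Crabp1, which binds retinoic acid in the cytoplasm, had 92, 73 and 62 counts in the Ezh2 controls and 330, 349 and 293 in the Ezh2-/- epiblasts, with no overlap (log2 fold change 2.09, SE 0.27, unadjusted p = 1.23e-05, edgeR adjusted p = 0.0555). In the Ehmt2 cross it had 141, 123, 89 and 282 counts in the controls and 38, 67, 44 and 196 in the Ehmt2-/- epiblasts (log2 fold change -0.94, SE 0.32, edgeR adjusted p = 0.265). Also at an unadjusted p under 0.05 were Rxrg (log2 fold change 1.45) and Crabp2 (-0.84) in the Ezh2 cross and Cyp26a1, which breaks down retinoic acid, in the Ehmt2 cross (2.22). Of 9 axis signals and inducers 7 were tested in each cross and none was called, with Nr6a1, a nuclear receptor that acts on trunk length, at an unadjusted p under 0.05 in the Ezh2 cross (log2 fold change -0.34). Nr6a1 or Kmt2a, a methyltransferase that maintains Hox expression, had the highest count of this group in each epiblast.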

How the data were processed

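Single mouse epiblasts at E6.25 were profiled by RNA-seq (14 libraries), and the chromatin and DNA methylation libraries of the series were not analysed here. The authors trimmed reads to 40 nt, aligned them with TopHat2 to GRCm38/mm10 and counted them with HTSeq per Ensembl release 74 transcript. The submitters' processing notes also name Bowtie, and the versions behind these counts are not given in the sources used here. The deposited values are raw counts per transcript, and a transcript not listed for an epiblast was taken as 0. Of 72516 listed transcripts 70021 (96.6%) were matched to a gene of the annotation, and 22134 genes were represented by the transcript with the highest mean count.

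Counts were tested with edgeR 4.0.16 in R 4.3.3 (TMM scaling, filterByExpr, quasi-likelihood test, Benjamini-Hochberg adjustment over all transcripts tested), each cross by itself. The Ehmt2 fit held a term for replicate 4, whose knockout the study's source data set against control 4. Calls combined an adjusted p under 0.05 with the study's own limit on the size of the log2 fold change, 1.4, and the lists of other genes were counted at an unadjusted p under 0.05 in either direction. CPM used the TMM-scaled library size. DESeq2 1.42.0 (size factors, Wald test) was an alternative, as were other filters, features and scalings, a replicate block, and each epiblast left out. The per-embryo rule combined the p-values of each knockout against the controls by Fisher's method. Correlations used log2(CPM + 0.5) with 100000 permutations. Scripts were tested on simulated data.

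Full values are given for members with an unadjusted p under 0.05, for those whose groups do not overlap and for the 6 highest in the controls per kb, and other members by counts. The members and lists were chosen with earlier results of these data known. Of 39 Hox genes in the annotation, 1 is not reported here.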

Additional observations from a re-analysis of the deposited data

Results flagged for a closer look

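In groups of 4 epiblasts, the highest or lowest value was compared with its nearest neighbour by Dixon's test. The groups tested were those in which a member had more than 3 counts in at least 1 epiblast. Of 34 groups tested 6 held a value beyond the 95% critical value, where chance gives about 1 in 20 for values without ties at 0. That rate does not allow for the choice of groups by their highest count. For Hoxd12, Hoxb3 and Hoxc5, with 0 in the other 3 epiblasts, the ratio is at its maximum whatever the count, so this rate does not apply to them. All 6 belonged to the Ehmt2 cross, since groups of 3 were not tested. Hoxd12 was at 1.85 CPM (128 counts) in Ehmt2-/- 4 and at 0 in the other 3 Ehmt2-/- epiblasts. Hoxc8 was at 0.451 CPM (18 counts) in Ehmt2 control 1, where the next control had 0.0983. Hoxa9 was at 0.391 CPM (15 counts) in Ehmt2-/- 3, where the next epiblast had 0.0578. Hoxa2 was at 0.257 CPM (9 counts) in Ehmt2-/- 1, with 0.0289 in the next. Hoxb3 was at 0.246 CPM (15 counts) in Ehmt2 control 4 and at 0 in the other 3 controls. Hoxc5 was at 0.116 CPM (8 counts) in Ehmt2-/- 4 and at 0 in the other 3 Ehmt2-/- epiblasts. None of these genes passed the filter on low counts in this cross.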

How the results depend on the processing

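In the Ezh2 cross the number of members called higher was 0 in edgeR and 2 with DESeq2 or the per-embryo rule. Members higher at an unadjusted p numbered 2, against 276 of the 14010 genes tested. They numbered 8 without a filter on low counts, against 544 of 20548 genes, and 4 with a filter on the mean count, against 376 of 15417. With 1 epiblast left out they numbered 2 to 6 (6 without control 1, against 586 of 14559 genes). Of those added without a filter, Hoxc10 and Hoxc12 were read mainly in Ezh2-/- 1, and Hoxb3 and Hoxb9 mainly in Ezh2-/- 3. Members lower at an unadjusted p rose from 0 to 1 with the decidua marker covariate, which was chosen after seeing the data (Hoxa11, log2 fold change -2.11, edgeR adjusted p = 0.536). In that fit 58 of 14010 genes were lower by the same rule. In the Ehmt2 cross members higher at an unadjusted p numbered 1 without a filter or with the mean-count filter (Hoxd12, read in 1 epiblast). Of all genes, 852 of 21236 and 612 of 15615 were higher in these fits. With 1 epiblast left out the members numbered 0 to 1. Members whose knockouts all lay above the controls numbered 0 to 1 (Ehmt2) and 3 to 8 (Ezh2) with 1 epiblast left out, and below 0 to 1 (Ehmt2). The matching share of all genes was not worked out in the Ehmt2 cross. The mean log2 difference of the Hoxb sum in the Ehmt2 cross was -0.13 without Hoxb1. The median number of members detected at 1 count or more was 17 and 17.5 (Ehmt2 control, Ehmt2-/-) and 15 and 21 (Ezh2 control, Ezh2-/-), and at 10 counts or more 5 in Ehmt2-/- and 3 in Ezh2 control epiblasts.

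Log2 fold changes that turned sign belonged to Hoxa10, Hoxa11, Hoxb1 and Hoxd9 to Hoxd11, none of them called. In Ehmt2-/- these were Hoxa11 (-0.021 without Ehmt2-/- 3 to 1.46 with 1 epiblast left out, -1.41 with the decidua covariate), Hoxa10 (-0.013 without Ehmt2-/- 3 to 2.08, and -0.61 with the covariate), Hoxd11 (-0.23 with the covariate), Hoxd9 (0.071 and 0.023 without Ehmt2-/- 1 or 2, down to -2.54 without Ehmt2-/- 3) and Hoxd10 (-0.41 with the replicate block, -1.20 with the covariate, and -0.0036, -0.13, -0.69 and -0.057 without control 2, control 3, Ehmt2-/- 2 and Ehmt2-/- 3, up to 0.55 without Ehmt2-/- 1). In Ezh2-/- they were Hoxb1 (-0.22 without control 1, up to 0.62 without control 3), Hoxa11 (1.37 without control 1, down to -2.40 without Ezh2-/- 1), Hoxa10 (0.44 with the replicate block, 2.68 without control 1, 0.14 without Ezh2-/- 3, down to -0.91 without control 2) and Hoxd10 (3.48 without control 1, 0.10 without Ezh2-/- 3, down to -1.23 without Ezh2-/- 2). The cause was not tested. Same-numbered epiblasts correlated at 0.0597 to 0.397 in the Ehmt2 cross and -0.179 to 0.221 in the Ezh2 cross, not over 0.1 in every pair, so the numbers were not taken as pairs. Ehmt2 replicates 2 to 4 each correlated best with their own number, as a hint from the data. With the replicate block Hoxd13 was at 2.68 and Hoxc9 at 5.74 in Ezh2-/- (edgeR adjusted p = 0.458 and 0.421). Without Ezh2-/- 1 they were at 2.45 and 5.74. Most members had 3 counts or fewer in most controls, so small differences were not detectable there.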
